A study of Mus musculus with 2 samples.

Results

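Hepatokines are hormones and carrier proteins that the liver releases into the blood. The transcripts of 8 of them were compared between a miR-182-5p KO and a WT mouse liver that were regenerating after 2/3 partial hepatectomy (PH): *Fgf21*, *Gdf15*, *Ahsg*, *Fetub*, *Angptl4*, *Angptl8*, *Lect2* and *Rbp4*. They were picked by name among 34745 listed genes. No level or difference entered the rule, but the choice was made with earlier results of these data known. *Angptl8* is listed under the older name *Gm6484* and was matched by its Ensembl identifier, and the other 7 genes were matched by symbol.

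The livers came from male mice, 8 to 10 weeks old, from which 70% of the liver had been removed, and their poly(A) RNA was sequenced. The day of collection, day 3 after PH, is taken from the text of the paper and is not in the sequencing labels. The KO mice carried the miR-182-5p knockout on a single allele, since animals without either allele have a defect of the retina, and the controls were WT mice. The design holds 1 library of each genotype, and the number of mice behind each library is not stated. A difference between the libraries therefore has no replicate check, no test of the genotypes was possible, and every interval below is a 95% interval that covers counting error only. In whole liver, fewer cells of a type and less RNA per cell cannot be told apart.

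The hormones differ in what they do. FGF21 and GDF15 are released under fasting, amino acid shortage or cell stress and act on the brain, GDF15 through a receptor confined to the hindbrain. ANGPTL4 and ANGPTL8 set where the fat of lipoproteins is taken up, by acting on lipoprotein lipase. The fetuins (*Ahsg*, *Fetub*), retinol-binding protein (*Rbp4*) and LECT2 are products of hepatocytes that circulate in blood.

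Depth was nearly equal, with total counts of 13247497 for KO and 13163348 for WT. The composition was not: 13 genes encoded by mitochondrial DNA made up 51.7% of all counts in KO and 31.0% in WT. Levels are given in FPKM, the authors' counts per gene length and total count. Differences are given as log2 fold changes, KO over WT, after TMM scaling, which limits the weight of the most abundant genes and placed the median of the 13561 genes with at least 10 counts at 0.00. With scaling by total counts that median was −0.60, and the values below are shifted down alike, so that a TMM value between 0 and 0.60 changes its sign. A gene was called higher or lower at a 2-fold difference. With TMM 9.46% of the genes were called higher and 9.94% lower. With total counts 4.60% were called higher and 26.6% lower. The targeted gene, *Mir182*, was not analysed here and gives no check of the genotype labels. Hepatocyte markers were abundant in both libraries (515365 counts in KO and 856140 in WT over 7 genes, none at 0), with a median log2 fold change of −0.40 and 5 of 7 below 0, 1 of which, *Apob*, was called lower. With total counts 7 of 7 were below 0 and 3 were called lower. The part of hepatocyte content in the differences of the hormone genes was not tested. The 5 cholangiocyte markers summed to 1759 and 2032 counts, most of them from *Spp1* (1638 and 1875), with a median log2 fold change of 0.40, or −0.20 with total counts. *Krt19* (26 and 7 counts) and *Krt7* (15 and 6) were called higher on few counts. With total counts the interval of *Krt7* spanned 0 (−0.13 to 2.97).

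miR-182-5p pairs with transcripts mainly through its seed. Its mature sequence, from RefSeq (GRCm38.p6, chr6:30165962-30165986, minus strand), is shown with bases 2 to 8, the seed, in capitals. The places (GRCm38) where the longest GENCODE M21 transcript of a hormone gene holds the matching bases, TTGCCAA, searched on the transcript strand only, follow it with the match in capitals.

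mmu-miR-182-5p: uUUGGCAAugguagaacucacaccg

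*Ahsg*, 3′ UTR, chr16:22899357-22899385, plus strand: gaaaggtgctcTTGCCAAtcttcaatcta

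*Fetub*, coding sequence, chr16:22937847-22937875, plus strand: cccgttggtatTTGCCAAggttctacggt

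*Fgf21*, coding sequence, chr7:45614882-45614910, minus strand: tctaggtttctTTGCCAAcagccagatgg

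*Gdf15*, *Angptl4*, *Angptl8*, *Lect2* and *Rbp4* do not hold these bases. A match of this length is common: 11.9% of the 3′ UTRs of 12470 tested genes hold at least 1, as do 26.7% of 12544 whole transcripts. The match in *Ahsg* is the only 1 of the 3 that lies in a 3′ UTR, the part of a transcript where most known miRNA sites are found. These matches describe the letters and do not show that miR-182-5p binds there.

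*Fgf21*, with 9 counts over both libraries, was below the minimum of 10. None of the other 7 hormone genes was called higher or lower with TMM. Of these 7, 5 stood below 0 and 2 above, between −0.66 for *Rbp4* and 0.62 for *Fetub*, with a median of −0.22. With shares of 9.46% and 9.94% among all genes, an absence of calls among 7 genes is not a result about them. With total counts *Gdf15*, *Ahsg* and *Rbp4* were called lower and none higher, against 26.6% and 4.60% of all genes, and the median was −0.82. The 8 genes together took 0.463% of the counts in KO and 0.943% in WT. Without the mitochondrial genes in the total, their shares were 0.959% and 1.37%. Scaled by total counts without the mitochondrial genes, none of the 7 was called and the median was −0.31. Beyond this scaling, the part of the mitochondrial share in the differences of the hormone genes was not tested.

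The order of the levels was the same in both libraries. *Ahsg* was the most abundant, followed by *Rbp4*, *Fetub*, *Lect2*, *Angptl8*, *Angptl4*, *Gdf15* and *Fgf21*. In the KO library the counting intervals of no neighbours in this order overlapped. In the WT library those of *Angptl8* and *Angptl4* overlapped, so that these genes are not ordered there. Levels spanned from 2056 FPKM for *Ahsg* to 0.162 FPKM for *Fgf21* in KO, and from 4517 to 0.572 FPKM in WT.

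**Figure D1:**
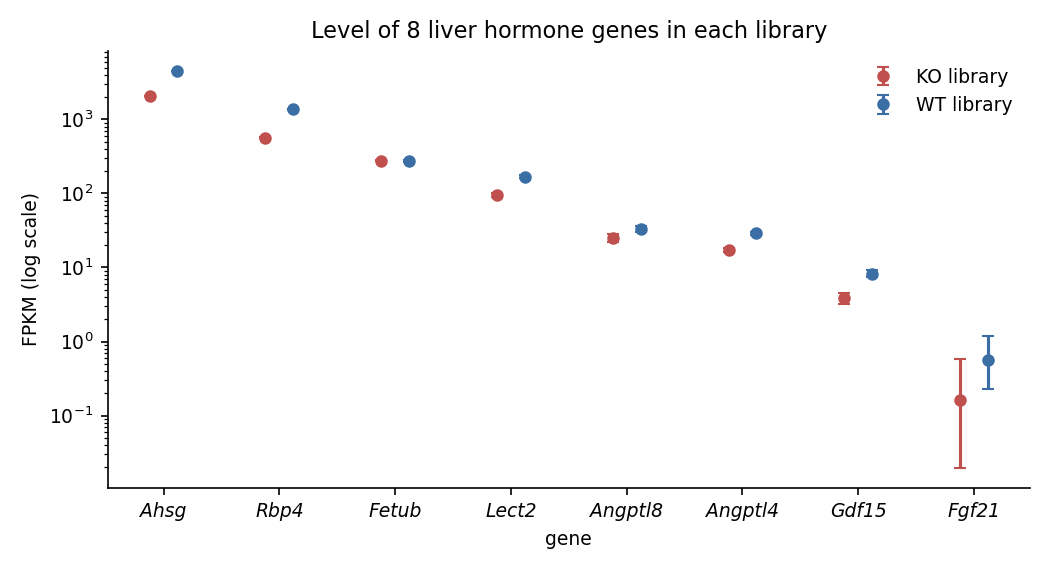
FPKM of each of the 8 genes (log axis) in the KO library (red) and the WT library (blue), with exact Poisson 95% intervals of the counts. Each point is 1 library; *Ahsg* is highest and *Fgf21* lowest in both, and *Fetub* is the gene at nearly the same FPKM in both, 276 and 273.

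*Fgf21* (ENSMUSG00000030827, GRCm38 chromosome 7, 45613907 to 45615490, minus strand, 3 exons) encodes a hormone that binds FGF receptors together with the co-receptor beta-Klotho. The gene had 2 counts in KO and 7 in WT, 0.162 FPKM (0.0197 to 0.586) and 0.572 FPKM (0.230 to 1.18). By level it was gene number 12303 of all listed genes in KO and 10347 in WT. The transcript was near the limit of detection in both livers. The KO count is under the floor of 3 counts set for the comparison, and the log2 fold change of −1.07, which depends on the added count of 0.5, had an interval from −4.52 to 1.18. A difference in *Fgf21* was not detectable at this depth.

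*Gdf15* (ENSMUSG00000038508, chromosome 8, 70629393 to 70632456, minus strand, 2 exons) encodes a distant member of the TGF-beta superfamily that lowers appetite. It had 149 counts in KO and 319 in WT, 3.85 FPKM (3.25 to 4.52) and 8.29 FPKM (7.40 to 9.25). The WT library was higher on this scale and the intervals did not overlap. With TMM the log2 fold change was −0.50 (−0.80 to −0.22), or 1.42-fold higher in WT. With total counts it was −1.10 (−1.40 to −0.82), an interval that holds the 2-fold limit. The ratio of *Fgf21* to *Gdf15* in KO was 0.612 times that in WT, with an exact interval from 0.0614 to 3.27, so that a difference between these stress hormones was not detectable at this depth. Macrophages also make GDF15. The 7 markers of Kupffer cells and macrophages summed to 1259 counts in KO and 2586 in WT, with none at 0 in either library. With TMM their median log2 fold change was −0.31 and 2 genes (*Adgre1* and *Marco*) were called lower, beside 9.94% of all genes. With total counts their median was −0.91 and 3 were called lower, beside 26.6%. The part of these cells in the *Gdf15* value was not tested.

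*Ahsg* (ENSMUSG00000022868, chromosome 16, 22892042 to 22899438, plus strand, 7 exons) encodes fetuin-A, which keeps calcium phosphate in solution in plasma and inhibits the insulin receptor kinase. It was gene number 30 by level in KO and 24 in WT. It had 40143 counts in KO and 87637 in WT, 2056 FPKM (2036 to 2076) and 4517 FPKM (4487 to 4547). Counting error was small beside the gap between the libraries. The log2 fold change was −0.53 (−0.55 to −0.52), or 1.45-fold higher in WT, and −1.14 with total counts. *Gm30505*, annotated on the opposite strand, overlaps an exon of *Ahsg* and shares 0.907% of the 51-base words of its transcript. Whether the reads were counted by strand is not given in the sources used here.

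*Fetub* (ENSMUSG00000022871, chromosome 16, 22918382 to 22939766, plus strand, 9 exons) encodes fetuin-B, an inhibitor of the egg protease ovastacin that is needed for female fertility. It had 8769 counts in KO and 8590 in WT, 276 FPKM (271 to 282) and 273 FPKM (267 to 278). Its share of all counts was thus nearly equal in both libraries, and the FPKM intervals overlapped. With TMM it was 1.54-fold higher in KO, a log2 fold change of 0.62 (0.58 to 0.67), and with total counts 0.02 (−0.02 to 0.06). Among the tested genes 82.3% had a lower log2 fold change than *Fetub*, while 21.3% had a lower one than *Ahsg*.

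The fetuin genes thus stood on opposite sides of the median. They are paralogs, transcribed in the same direction, with 18943 bases between them. The count ratio of *Ahsg* to *Fetub*, which no scaling can change, was 4.58 in KO and 10.2 in WT. The ratio in WT was 2.23 times that in KO (exact conditional interval 2.16 to 2.30). The neighbours of the fetuins, looked at after their values were seen, stood at different values. *Dnajb11*, a chaperone of the endoplasmic reticulum just before *Ahsg*, had 772 and 761 counts and a log2 fold change of 0.61. *Hrg*, *Kng2* and *Kng1*, cystatin-type plasma proteins like the fetuins, stood at 0.12, 0.04 and 0.44. *Eif4a2*, a translation factor, stood at 0.22. *Ahsg*, at −0.53, was the only 1 of these 7 genes below 0 with TMM. With total counts *Dnajb11* and *Fetub*, at 0.01 and 0.02, were the only ones not below 0.

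The promoters of the fetuin genes, the first RefSeq start of each, are shown because these neighbours differed. Positions −100 to −1 before the start are given from the RefSeq promoter table (GRCm38.p6), with a TATA box (TATAAA) in capitals.

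*Ahsg*, chr16:22891915-22892014, plus strand: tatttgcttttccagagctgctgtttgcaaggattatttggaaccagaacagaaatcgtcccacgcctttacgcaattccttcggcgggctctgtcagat

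*Fetub*, chr16:22918282-22918381, plus strand: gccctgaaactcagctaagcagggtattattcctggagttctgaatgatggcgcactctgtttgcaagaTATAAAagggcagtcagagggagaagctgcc

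TATAAA was found at −31 in *Fetub* and not in the *Ahsg* stretch. Searched on both strands, TATAAA is in 13.6% of 32851 promoters of 300 bases, and in promoters of *Fetub*, *Fgf21* and *Rbp4* among the hormone genes. The match describes the sequence only.

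*Angptl4* (ENSMUSG00000002289, chromosome 17, 33773750 to 33781575, minus strand, 7 exons) encodes an inhibitor of lipoprotein lipase that is made under fasting. It had 1178 counts in KO and 1990 in WT, 17.1 FPKM (16.1 to 18.1) and 29.0 FPKM (27.7 to 30.3). With TMM the difference was small, at −0.16 (−0.27 to −0.06), and it was −0.77 with total counts. *Angptl8* (ENSMUSG00000047822, chromosome 9, 21835510 to 21837346, plus strand, 4 exons) encodes a regulator of lipoprotein lipase that is made after feeding. It had 287 counts in KO and 376 in WT, 25.1 FPKM (22.3 to 28.2) and 33.1 FPKM (29.8 to 36.6). Its direction depended on the scaling, with a TMM value of 0.20 (−0.02 to 0.43) and a value of −0.40 (−0.63 to −0.17) with total counts. The gene lies within *Dock6*, on the other strand, and overlaps none of its exons.

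The ratio of *Angptl4* to *Angptl8*, the fasting to the feeding form, was 4.11 in KO counts and 5.29 in WT counts. The ratio in KO was 0.776 times that in WT (exact interval 0.652 to 0.923), so that the genes differed from each other by more than counting error. Adipocytes make both hormones as well. Of 5 adipocyte markers, 5 had no count in KO and 4 had none in WT, and *Cidec*, a lipid droplet protein, had 11 counts in WT.

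*Lect2* (ENSMUSG00000021539, chromosome 13, 56542460 to 56548538, minus strand, 4 exons) encodes a chemotactic protein of hepatocytes that binds TIE1 and MET. It had 1097 counts in KO and 1929 in WT, 94.4 FPKM (88.9 to 100.2) and 167 FPKM (160 to 175). The log2 fold change was −0.22 (−0.33 to −0.11), the median of the hormone genes, and −0.82 with total counts. Against *Alb*, the albumin gene, which had 339876 and 536544 counts, the ratio of *Lect2* in KO was 0.898 times that in WT (0.833 to 0.968). *Lect2* thus lay nearer to the main product of hepatocytes than the fetuins or *Rbp4* did.

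*Rbp4* (ENSMUSG00000024990, chromosome 19, 38116620 to 38125321, minus strand, 6 exons) encodes the plasma carrier of retinol, which circulates bound to transthyretin. It had 9758 counts in KO and 23245 in WT, 568 FPKM (557 to 579) and 1362 FPKM (1344 to 1379). It was the lowest of the tested hormone genes on the log2 scale, at −0.66 (−0.69 to −0.63), or 1.58-fold higher in WT, and −1.26 with total counts. *Ttr*, the gene of transthyretin, had 57646 and 74228 counts and a log2 fold change of 0.23, which was −0.37 with total counts. The count ratio of *Rbp4* to *Ttr* was 0.169 in KO and 0.313 in WT. The ratio in WT was 1.85 times that in KO (exact interval 1.80 to 1.90), so that the retinol carrier and its binding partner did not differ between the libraries by the same amount.

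**Figure D2:**
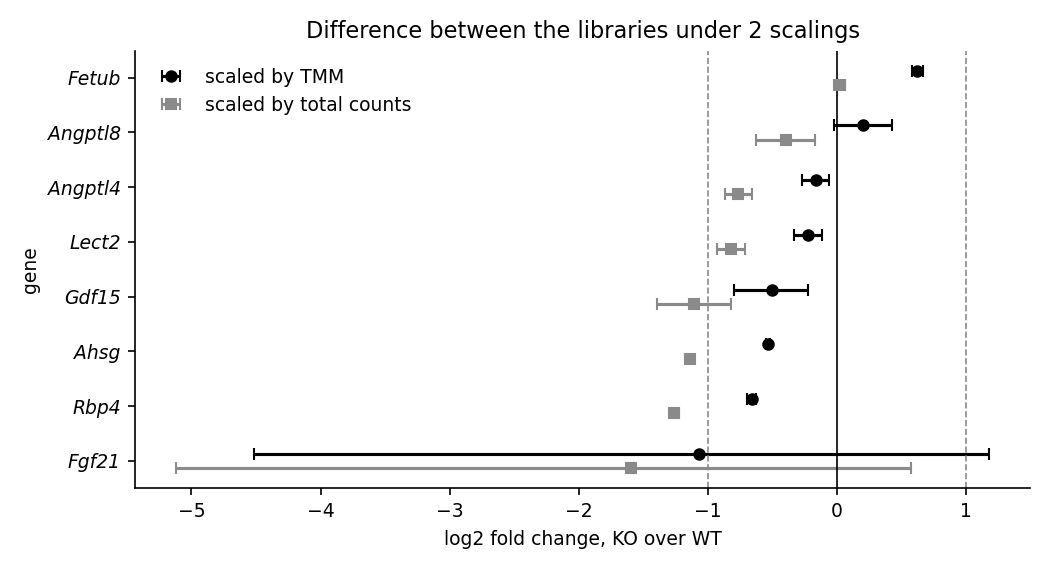
Log2 fold change, KO over WT, of each gene with TMM scaling (black circles) and with total counts (grey squares), with exact 95% binomial intervals of the counts; dashed lines mark a 2-fold difference. The squares lie to the left of the circles, those of *Gdf15*, *Ahsg*, *Rbp4* and *Fgf21* lie beyond the 2-fold line, and the interval of *Fgf21* spans 0 under both scalings.

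Albumin served as a reference within each library that does not depend on scaling. Against it, *Fetub* was 1.61 times higher in KO (1.56 to 1.66). *Ahsg* was lower in KO, at 0.723 times its ratio in WT (0.714 to 0.732), as was *Rbp4*, at 0.663 times (0.647 to 0.679). *Fgf21* could not be placed against albumin (0.451, with an interval from 0.0457 to 2.37). Abundant hepatocyte products thus differed from each other, in both directions, by more than counting error. How far such products differ between mice of 1 genotype cannot be known from single libraries.

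**Figure D3:**
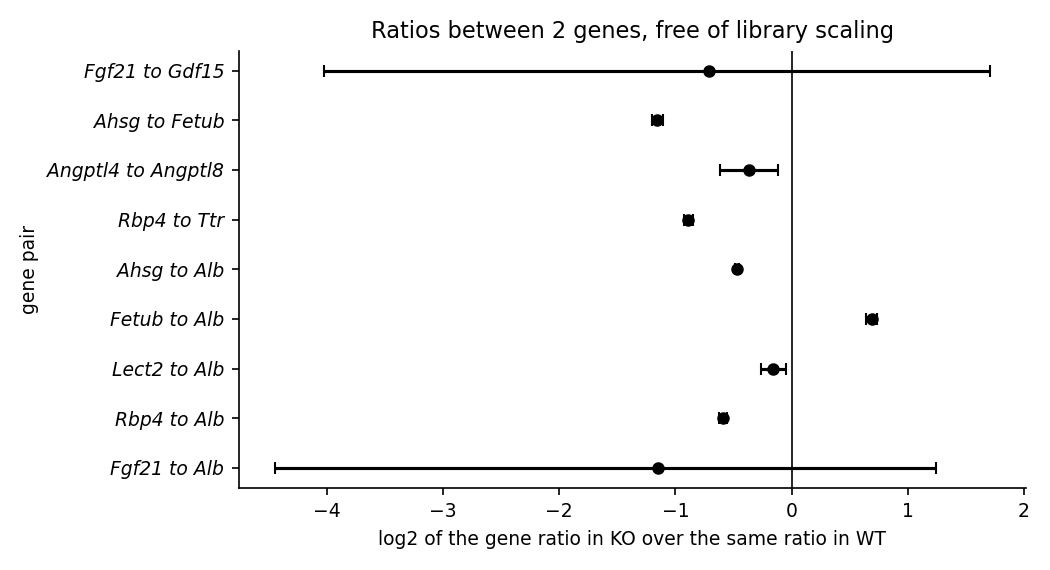
Log2 of the ratio of 2 genes in KO over the same ratio in WT, with exact conditional 95% intervals of the counts; 0 means an equal ratio in both libraries. *Ahsg* to *Fetub* lies farthest from 0 among the pairs without *Fgf21*, at −1.16, *Fetub* to *Alb* lies at 0.69, and the intervals of both *Fgf21* pairs span 0.

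The receptors, partners and inhibitors of the 8 hormones reported here form a list of 23 genes, of which 19 had at least 10 counts. With TMM 1 was called higher and 1 lower (9.46% and 9.94% of all genes), and the median was 0.13. With total counts none was called higher and 5 lower (4.60% and 26.6% of all genes), and the median was −0.47. The FGF receptors that can bind FGF21 were not alike. *Fgfr1* had 227 counts in KO and 150 in WT (1.19, called higher, and 0.59 with total counts). *Fgfr4*, the main FGF receptor of hepatocytes, had 751 and 599 counts (0.92, and 0.32 with total counts). *Fgfr2* had 81 and 210 (−0.78), and *Fgfr3* had 81 and 84 (0.54, and −0.06 with total counts). *Klb*, which encodes beta-Klotho, had 44 and 69 counts (−0.06), and *Fap*, the gene of the protease that cleaves FGF21, had 12 and 9 (0.96, with an interval that spans 0). The co-receptor thus stood near the median of all genes, and *Fgfr1* was past a 2-fold difference with TMM and not with total counts.

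For GDF15, the receptor gene *Gfral* had no count in either library, which does not show that its transcript was absent, and its co-receptor *Ret* had 0 and 4. Among the proteases of the pathway, *Mmp14* had 177 and 438 counts (−0.71) and *Furin* 820 and 1277 (−0.05). For the fetuins, *Insr*, the insulin receptor gene, had 942 and 1155 counts (0.30, and −0.30 with total counts), and *Tlr4* had 6 and 12. For LECT2, *Tie1* had 149 and 135 counts (0.73), *Met* had 390 and 526 (0.16, and −0.44 with total counts), and *Cd209a* had none. None of these was called with TMM.

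For the ANGPTL proteins, *Gpihbp1*, which anchors lipoprotein lipase on capillaries, had 10 counts in KO and 45 in WT and was called lower (−1.54, interval −2.73 to −0.57). *Lpl*, the lipase itself, had 1231 and 2921 counts (−0.65), and *Lipc*, hepatic lipase, had 954 and 1430 (0.01). *Lmf1*, needed for lipases to mature, had 466 and 450 (0.64). Among the endothelial markers, 6 genes with none at 0, the sum was 698 counts in KO and 1298 in WT. With TMM their median log2 fold change was −0.44 and 1 gene (*Lyve1*) was called lower, beside 9.94% of all genes. With total counts their median was −1.04 and 3 were called lower, beside 26.6%. The part of endothelial cells in the *Gpihbp1* value was not tested.

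For retinol, *Stra6l*, the RBP4 receptor of liver, had 1764 and 2435 counts (0.13, and −0.47 with total counts), while *Stra6*, that of other tissues, had 2 and 0. *Lrat*, which stores retinol as ester in stellate cells, had 45 and 126 counts (−0.89). The stellate cell markers, 7 genes with none at 0 and *Lrat* among them, summed to 1029 counts in KO and 2278 in WT. With TMM their median was −0.52 and 1 gene (*Col1a1*) was called lower, beside 9.94% of all genes. With total counts their median was −1.12 and 4 were called lower, beside 26.6%. The part of stellate cells in the *Lrat* value was not tested.

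*Fgf21* and *Angptl4* are targets of PPARα, the nuclear receptor of fasting. Of the 19 other genes of the PPARα list, all tested, none was called higher and 7 were called lower, with a median of −0.37 and of −0.97 with total counts. *Cyp4a14*, an omega-hydroxylase of fatty acids, had 121 counts in KO and 1985 in WT (−3.44). *Pdk4*, a brake on glucose oxidation, had 15 and 221 (−3.25), and *Cd36*, a fatty acid carrier, had 37 and 320 (−2.51). *Ppara* itself had 61 and 60 counts (0.61, and 0.01 with total counts). The *Cyp4a* genes have close copies, between which the counting could have divided reads. The 7 of 19 lower calls stand beside 9.94% of all genes, and the 9 of 19 with total counts beside 26.6%. *Angptl4*, at −0.16 with TMM and −0.77 with total counts, was not called under either. This list, like the others, was chosen with earlier results of these data known, so the contrast with all genes is a description only. The list was not tested as a set.

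*Fgf21* and *Gdf15* are also targets of ATF4 and CHOP, the factors of the integrated stress response. Of 17 other genes of that list, all tested, 5 were called higher and 2 lower with TMM, beside 9.46% and 9.94% of all genes, with a median of 0.47. With total counts 2 were higher and 5 lower, beside 4.60% and 26.6%, and the median was −0.12, so that the direction of the list depended on the scaling. The 5 higher calls also rest on genes with few counts: 3 were left with an added count of 5 and 2 with a minimum of 50 counts. *Slc7a11*, a cystine carrier, had 14 counts in KO and 1 in WT, a ratio with an interval from 1.68 to 9.80 on the log2 scale. *Asns*, asparagine synthetase, had 192 and 33 counts (3.11). *Ddit3*, the gene of CHOP, had 368 and 206 (1.43, and 0.83 with total counts). *Ddit4*, an inhibitor of mTORC1, had 39 and 235 counts (−1.99), and *Atf3* had 50 and 172 (−1.18). *Atf4* had 1341 and 1498 (0.43, and −0.17 with total counts). *Gdf15*, at −0.50, stood below the median of its list, and members of the list lay on both sides.

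The sequence that CHOP or ATF4 binds together with C/EBP factors, ATTGCATCA, was sought on both strands in the RefSeq promoters of 7 of the hormone genes (10 promoters in all; that of *Angptl4* was not analysed here). The search was chosen after the promoters had been looked at. It was found in *Fgf21*, at −140 from the start, and in *Angptl8*, at −130 as the reverse complement, and in 0.192% of 32851 promoters. Both windows are shown, with the match in capitals, because these hormones are known for opposite states, fasting and feeding.

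*Fgf21*, chr7:45615597-45615655, minus strand: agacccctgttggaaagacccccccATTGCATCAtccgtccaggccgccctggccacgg

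*Angptl8*, chr9:21835355-21835413, plus strand: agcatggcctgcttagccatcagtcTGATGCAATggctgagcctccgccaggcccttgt

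Neither gene was called, and the match is a description of the letters. The E-box CACGTG, a site of many factors, was found in promoters of *Fgf21* and *Gdf15* and in 7.15% of all promoters. TTATGNAA, where N is any base, was also sought. It was found in promoters of *Fetub* and *Rbp4* and in 3.38% of all promoters.

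*Angptl8* is a target of insulin and the lipogenic factors SREBP-1c, LXR and ChREBP. Of 17 other tested genes of that list, none was called higher and 3 were called lower with TMM, beside 9.46% and 9.94% of all genes: *Scd1*, a fatty acid desaturase, with 8833 counts in KO and 35900 in WT (−1.43), *Pnpla3*, a lipase of lipid droplets, with 18 and 71 (−1.37), and *Elovl6*, an elongase, with 347 and 1176 (−1.17). The median was −0.13. With total counts none was called higher and 7 lower, beside 26.6% of all genes, and the median was −0.73. The genes of the factors were not called, with *Srebf1* at −0.13, *Mlxipl*, the gene of ChREBP, at 0.52 and *Nr1h3*, that of LXRα, at 0.55. With total counts *Srebf1* stood at −0.73, *Mlxipl* at −0.08 and *Nr1h3* at −0.05. *Angptl8*, at 0.20, lay above the median of the list.

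*Angptl4* also responds to glucocorticoids. Of 13 other genes of the glucocorticoid receptor list, none was called higher and 1 lower with TMM, beside 9.46% and 9.94% of all genes. The lower gene was *Fkbp5*, a chaperone of steroid receptors, with 122 counts in KO and 370 in WT (−1.01). The value lay at the 2-fold limit, and upper quartile scaling or an added count of 5 left none. With total counts 5 of the 13 were called lower, beside 26.6% of all genes. *Nr3c1*, the receptor gene, had 354 and 487 counts (0.13, and −0.47 with total counts). Over the list the median was −0.25, close to *Angptl4*.

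**Figure D4:**
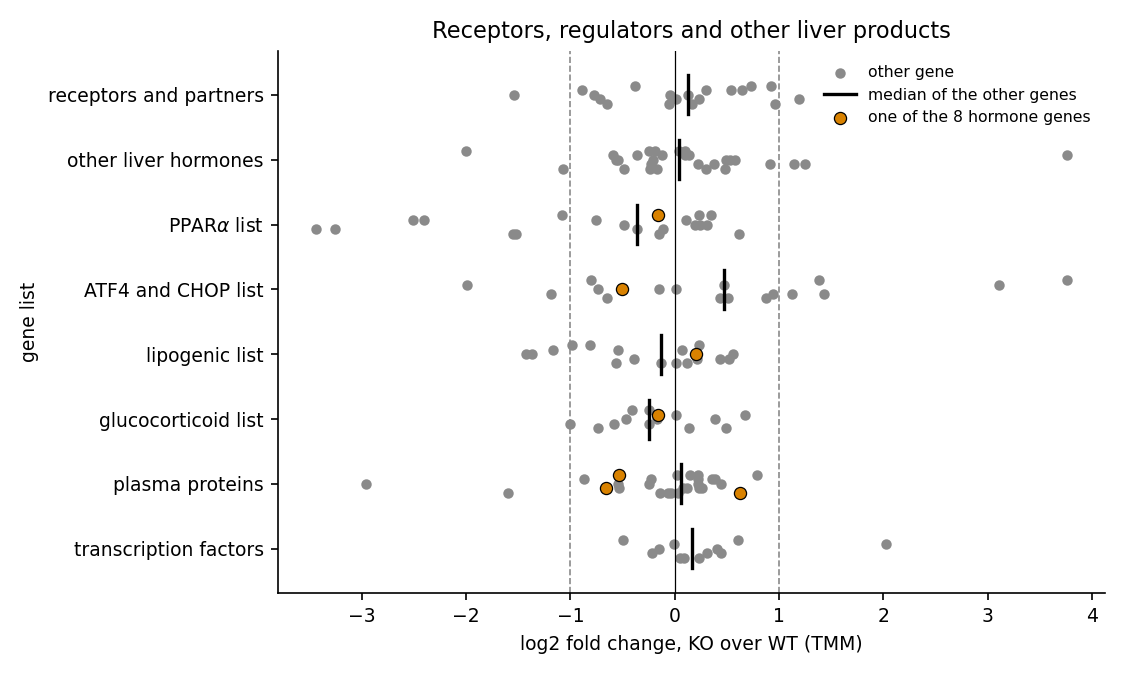
Log2 fold change, KO over WT, with TMM scaling, of the tested genes of 8 lists (grey points), with the median of each list without the hormone genes (black bar) and the hormone genes in the list (orange); dashed lines mark a 2-fold difference. The orange points lie between the dashed lines (*Fgf21*, with fewer than 10 counts, is not drawn), 7 grey points of the PPARα list lie beyond the line on the lower side, and the ATF4 and CHOP list reaches beyond both.

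Among 24 other abundant plasma proteins of hepatocytes none was called higher and 2 lower with TMM, beside 9.46% and 9.94% of all genes. Lower were the apolipoprotein genes *Apob*, with 1517 counts in KO and 17808 in WT (−2.96), and *Apoe*, with 25062 and 114246 (−1.60). The median was 0.06. With total counts it was −0.54, with none called higher and 5 lower, beside 4.60% and 26.6%. With TMM *Ahsg* and *Rbp4* lay below and *Fetub* above the median, all within the range of the list, from −2.96 to 0.79. Of 12 liver-enriched transcription factor genes, 1 was called higher and none lower with TMM, beside 9.46% and 9.94% of all genes. It was *Onecut1*, the gene of HNF6 (182 and 67 counts, 2.02). With total counts 1 was higher and 1 lower, beside 4.60% and 26.6%. *Hnf4a* had 3168 and 4601 counts (0.05, and −0.55 with total counts).

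Other hormones and growth factors made by the liver are reported here for 30 genes, 29 of them tested. With TMM 3 were called higher and 2 lower, beside 9.46% and 9.94% of all genes, with a median of 0.04. With total counts 1 was higher and 6 lower, beside 4.60% and 26.6%, with a median of −0.54. *Igf2*, a growth factor of fetal liver, had 32 counts in KO and 3 in WT, a ratio with an interval from 2.33 to 6.36 on the log2 scale. *Inhbe*, a hepatokine of the activin family, had 248 and 157 counts (1.25, and 0.65 with total counts), and *Igfbp3*, the main carrier of IGF1, had 71 and 48 (1.15, and 0.55 with total counts). *Hgf*, the gene of hepatocyte growth factor, had 5 and 32 counts (−2.00, interval −3.80 to −0.72), and *Igfbp2*, an IGF carrier, had 1142 and 3632 (−1.08). The other 24 were, like the 7 tested hormone genes, within a 2-fold difference with TMM.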

How the data were processed

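Poly(A) RNA of 1 KO and 1 WT liver was sequenced on Illumina HiSeq instruments. The authors deposited 2 units for each gene, raw read counts and FPKM. The FPKM that 1 count is worth in KO was 0.993 to 0.994 times that in WT for every gene, as scaling by total counts gives. The submitters' processing notes name HISAT2 2.0.4, StringTie and edgeR, and the human build hg38, although 34267 of 34745 identifiers are mouse genes of GENCODE M21 (GRCm38). The counting program and annotation are not given in the sources used here.

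Counts were scaled by TMM (edgeR 4.0.16, R 4.3.3; factors 0.812 for KO and 1.23 for WT), and log2 fold changes were taken with a prior count of 0.5 where the libraries together held at least 10 counts. Intervals are exact 95% binomial (Clopper-Pearson), Poisson (FPKM) or conditional (ratios of 2 genes), computed with scipy 1.17.1. They cover counting error only. DESeq2 1.42.0 was used as an alternative scaling. Steps were tested on simulated data. Both simulated libraries were drawn from the same average counts, apart from a set of changed genes, with counting noise only. They do not test scaling between libraries as unequal in composition as these, or variation between mice.

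The 8 genes and all lists were chosen with earlier results of these data known. Named genes are the 8, their receptors and partners, and from each other list up to 3 highest and 3 lowest genes past 2-fold with the regulators that name it. PCR and bile acid data were not used here. A pair of listed partner genes, and 1 planned ratio between genes, are not reported here, and the lists were counted without them. Alternatives were scaling by total counts with or without mitochondrial genes, DESeq2 size factors and the upper quartile, FPKM (pseudocount 0.1), a larger prior count (5), minimums of 1 and 50 counts, and calls that also required an adjusted p-value threshold of 0.05 in a binomial test of the reads or in edgeR's exact test with an assumed coefficient of variation of 0.2 or 0.4. Applying them to the lists was chosen after seeing the data.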

Additional observations from a re-analysis of the deposited data

How the results depend on the processing

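No paired analysis was possible because the genotypes have a single library each, which also leaves no replicate to omit. The counts of hormone genes called higher (0) and lower (0) were the same with DESeq2 size factors, the upper quartile and total counts without the mitochondrial genes. A prior count of 5, a minimum of 50 counts and the added tests of the reads can only remove calls, so their 0 says nothing about stability. With total counts and with the authors' FPKM 3 were lower, with medians of −0.82 for both against −0.22 with TMM. With a minimum of 1 count *Fgf21* entered, 1 gene was lower and the median was −0.36. Over all genes, 1283 were higher and 1348 lower with TMM, 624 and 3605 with total counts, 405 and 2934 with FPKM, 2289 and 2752 with a minimum of 1 count and 642 and 766 with 50, where other numbers of genes were tested. With an assumed coefficient of variation of 0.2, 488 were higher and 444 lower, and with 0.4, 59 and 58, since more noise is allowed for. Among the gene lists, a coefficient of variation of 0.2 left 6 of the 7 lower genes of the PPARα list, 3 of the 5 higher ones of the ATF4 and CHOP list and 1 of the 3 lower ones of the lipogenic list, and 0.4 left 1, 0 and 0. With 0.2 neither *Fgfr1* nor *Gpihbp1* of the receptor list was left, and none of the glucocorticoid list. Of the other liver hormones 1 of the 3 higher genes (*Igf2*) and 0 of the 2 lower ones were left. The 2 lower plasma protein genes, the 1 higher transcription factor gene and 1 of the 2 lower ATF4 and CHOP genes were left. With 0.4 none of these was left. For the move with total counts and FPKM, the mitochondrial share enters the totals by construction. Depth limits *Fgf21*, with 9 counts in all.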
